A study of Mus musculus with 32 samples.

Results

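A set of 8 genes that are mutated, rearranged or lost in parathyroid tumours, or that brake the cell cycle, were followed in parathyroid cells grown from mouse embryonic stem cells (ESC) and in native parathyroid cells. They were Men1, Cdc73, Ccnd1, Rb1, Cdkn2c, Cdkn1a, Cdkn1b and Ezh2, chosen by name but with earlier results of these data known. All 8 had reads among the 35458 genes of the expression tables. The data are 32 RNA-seq libraries, 4 in each of 8 experiments. Each was prepared with SMART-Seq HT chemistry, which copies whole transcripts, from 10 to 20 cells picked under a micromanipulator for tdTomato fluorescence. All groups carried the tdTomato reporter in the Pth gene, which encodes parathyroid hormone. Control cells came from C57BL/6-Pthtm1(P2A-tdTomato)/+ mice, in experiment 1 from males of 8 weeks and in experiment 2 from females of 11 weeks. In the mouse host arm, Pth-tdTomato mouse ESCs had complemented Gcm2-/- mice on a BDF1B6 background, which cannot form the gland themselves. That arm held 4 experiments at 9 weeks, labelled female in experiments 1 to 3 and male in experiment 4. In the rat host arm the same kind of ESCs had complemented a Gcm2-/- Wistar rat, taken as a neonate of unknown sex, in 1 experiment. The graft arm, also 1 experiment, held grafted ESC-derived cells with the strain label of the mouse host, labelled male and 12 weeks old. The labels name neither the host of the graft nor the animals behind the replicates, so p-values reflect only how far these libraries and experiments scatter, and some of that scatter may be technical. Host species and age change together in the rat host, and grafting and age in the graft, and these cannot be told apart. Labelled sex also differs between the graft and mouse host experiments 1 to 3, and that of the rat host is unknown.

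The parathyroid gland is a slowly renewing tissue, and its tumours are a textbook case of a cell cycle set loose by a few lesions. Cyclin D1, the product of Ccnd1, binds CDK4 and CDK6, and the complex phosphorylates the retinoblastoma protein (Rb1), which otherwise holds E2F transcription factors in check. In a class of human parathyroid adenomas CCND1 is driven by a rearranged PTH regulatory region. p18 (Cdkn2c) inhibits CDK4 and CDK6, and p21 (Cdkn1a) and p27 (Cdkn1b) inhibit cyclin-CDK2 complexes. Menin (Men1), lost in multiple endocrine neoplasia, works with histone methyltransferases and in endocrine cells sustains the transcription of p18 and p27. Parafibromin (Cdc73), lost in the hyperparathyroidism and jaw tumour syndrome and in parathyroid carcinoma, is a subunit of the PAF1 complex that travels with RNA polymerase. EZH2 is the catalytic subunit of Polycomb repressive complex 2, which silences genes by methylating histone H3.

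Control experiment 1 was sequenced deepest, with 29471254 to 32264864 reads a library, and the remaining 28 libraries held 9470744 to 15098391 reads. Levels are given as CPM (counts scaled to library size and corrected for library composition). Parathyroid identity genes were present in every library, with Gcm2 at 495 to 1477 CPM, Pth at 42170 to 136800 CPM and Chga at 113300 to 252600 CPM. The summed CPM of 12 parathyroid markers was lower in the 4 rat host libraries (160100 to 180500) than in the 16 mouse host libraries (267600 to 365700). Chga and Pth alone made up most of that sum in the rat host, so it says little about the other markers. Of these, Gcm2 averaged 707 CPM in the rat host, 964 in the mouse host and 657 in the controls, and Casr 378, 600 and 659 CPM. The sum of 36 proliferation genes was 774 to 4817 CPM in the rat host, 201 to 2015 in the mouse host, 200.5 to 1658 in the controls and 162.5 to 564 in the graft. Fibroblast markers stood highest in replicate 3 of control experiment 2 (4027 CPM) and replicate 4 of mouse host experiment 2 (3104 CPM), against 255 to 1124 CPM in the other libraries. Of 256 member values, 16 were 0, where 3 reads would have given 0.0944 to 0.325 CPM. Such intervals and floors cover counting error only.

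Arms were compared over experiments: reads were summed per experiment, and edgeR's quasi-likelihood test was fitted to the 8 sums with Benjamini-Hochberg adjustment over all genes. None of the 8 genes passed an adjusted p of 0.05 between the mouse host and the controls, between the rat host and the mouse host, or between the graft and the mouse host. Over all 15698 genes tested the same threshold called 0% in the mouse host against control, 0.643% in the rat host against the mouse host and 0.115% in the graft against the mouse host. At an unadjusted p below 0.05 the counts of members were 0, 2 and 0, beside 4.40%, 11.6% and 12.4% of all genes. The 2 were Rb1, lower in the rat host, where 5.28% of all genes were lower at that p, and Cdkn2c, higher there, beside 6.29% of all genes. In the other comparisons those directional shares were 2.13% lower and 2.27% higher in the mouse host against control, and 7.85% lower and 4.51% higher in the graft. Of the 8 log2 fold changes, 2, 3 and 3 were above 0, beside 50.4%, 46.0% and 43.4% of all genes. With DESeq2 in place of edgeR, 1 member was called over the same 3 comparisons, Rb1, lower in the rat host. DESeq2 called more genes throughout: of the 15587 genes it gave an adjusted p, it called 0.866% in the mouse host against control (0.738% higher, 0.128% lower), 5.58% in the rat host (1.64% higher, 3.94% lower) and 6.42% in the graft (0.738% higher, 5.68% lower). The last 2 comparisons share the mouse host libraries. The percentages over all genes given here are the background for the gene lists below. With only 1 experiment apiece, the rat host and graft arms borrow their spread from the controls and the mouse host.

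**Figure D1:**
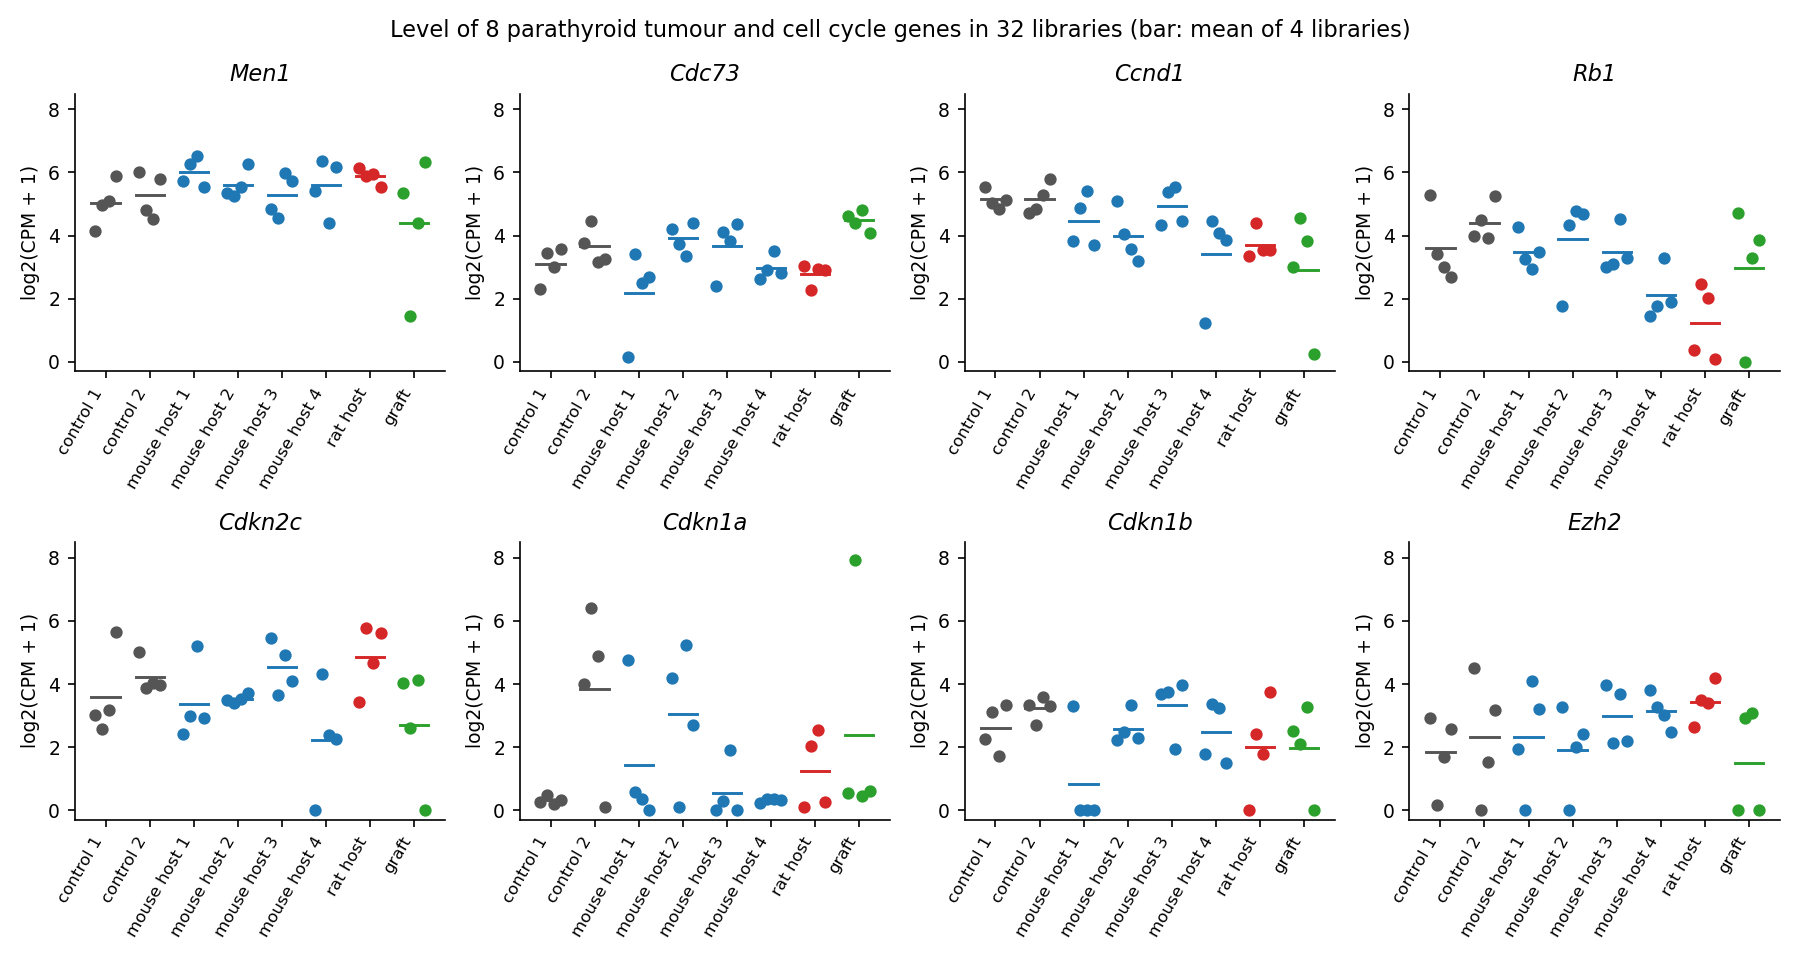
Level of each gene in 32 libraries, as log2(CPM + 1), by experiment; points are libraries and bars the mean of 4. Men1 was read in every library, whereas Cdkn1a was near 0 in most and reached 241.2 CPM in 1 graft library.

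Set per length, as TPM averaged over the 8 experiments, Men1 had the highest level at 20.1 TPM, followed by Cdkn1a at 14.01, Cdkn2c at 12.7 and Ccnd1 at 7.36. Below them stood Ezh2 at 4.17 TPM, Cdc73 at 3.92, Rb1 at 3.02 and Cdkn1b at 2.21. The place of Cdkn1a in this order rests on few libraries, since its mean was 54.9 TPM in the graft and 2.67 TPM in the rat host. In the order of the 8 experiment means of each gene, all 7 pairs of neighbours overlapped in their libraries, for every one of the 8 genes. The SD of log2(CPM + 1) within experiments had a median of 1.14 over the members. It was 0.803 over 12208 genes averaging at least 1 CPM and 0.938 over the 6149 genes with mean levels in the members' range.

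Cdkn2c and Cdkn1a have transcripts with alternative first exons, for which the tables give separate estimated counts. Sequences before their RefSeq starts are shown because the estimated reads divide between those transcripts. The sequences come from RefSeq's promoter table on GRCm38.p6, which holds windows for 6 of the 8 members. They run 5′ to 3′ on the gene's strand, with GC boxes (GGGCGG, either strand) and p53 half-sites in capitals. The long Cdkn2c transcript (Cdkn2c-202, 2471 bases, 3 exons) and the short one (Cdkn2c-201, 1106 bases, 2 exons) share their coding sequence and differ in the first exon. For the long start, 30 bases are shown from chr4:109666784-109666813 (minus strand), which lie 57 to 28 bases before the RefSeq start and inside the untranslated first exon of the GENCODE transcript, which begins 433 bases earlier. For the short start, 237 bases are shown from chr4:109665373-109665609 (minus strand), in the first intron of the long transcript and directly before the annotated start.
Cdkn2c long start: ggcgttGGGCGGggcgtGGGCGGggcccgg
Cdkn2c short start: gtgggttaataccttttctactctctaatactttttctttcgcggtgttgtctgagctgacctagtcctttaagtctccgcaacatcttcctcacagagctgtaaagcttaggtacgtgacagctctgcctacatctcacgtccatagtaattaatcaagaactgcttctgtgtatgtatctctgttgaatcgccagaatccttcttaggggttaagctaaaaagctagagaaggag

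The 250 bases before the RefSeq long start were 77.2% G and C and held 3 GC boxes, at 95, 51 and 40 bases before the start. All 250 lie inside the first exon of Cdkn2c-202, so they are not the bases upstream of that transcript's GENCODE start. The 250 bases before the short start were 42.8% G and C and held no GC box. Neither window held an E2F site, CHR, CCAAT box or TATA box by the letters searched. Of 32851 windows of that length, 32.7% held a GC box, 1.86% an E2F site (TTTCCCGC, TTTGGCGC, TTTCGCGC or TTTGCCGC), 15.99% a CHR (TTTGAA), 33.8% a CCAAT box (CCAAT) and 12.4% a TATA box (TATAAA), on either strand. The CHR is an element of cell cycle promoters.

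Libraries differed in how their Cdkn2c reads divided between the long and the short transcript. In the rat host the long transcript took 85.2%, 94.9%, 91.5% and 99.7% of Cdkn2c reads in the 4 libraries, and 95.4% of the pooled reads (1852 against 89). In the other arms the pooled shares were 59.5% in the controls, 48.3% in the mouse host and 50.1% in the graft, with library medians of 24.3%, 11.2% and 27.2%. The pooled shares exceed the medians because a few libraries carried most long-transcript reads. Of the 28 libraries outside the rat host, 26 had Cdkn2c reads, and in 9 of these the long transcript took most of them. All these shares are of estimated reads, not corrected for transcript length (2471 against 1106 bases), so they are not shares of molecules.

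Long-transcript levels in the rat host were 8.26, 50.9, 22.4 and 48.1 CPM, and short-transcript levels 1.44, 2.73, 2.08 and 0.135 CPM. In control experiment 1 the long transcript stood at 0.634, 0.983, 1.32 and 42.1 CPM, and the short one at 6.42, 3.96, 6.66 and 7.21 CPM. In control experiment 2 the long transcript gave 26.02, 4.81, 4.43 and 2.89 CPM and the short one 5.40, 8.76, 11.1 and 11.9 CPM. In each control experiment 1 library was high in the long transcript, while the short transcript stayed within 3.96 to 11.9 CPM.

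The mouse host had the same unevenness. Its long transcript ran from 0 to 43.3 CPM with a median of 0.980, and its short transcript from 0 to 17.9 CPM with a median of 6.36. The 3 libraries highest in the long transcript were replicate 1 of experiment 3 (43.3 CPM), replicate 3 of experiment 1 (26.3 CPM) and replicate 3 of experiment 3 (18.1 CPM). In the graft the long transcript gave 4.17, 0, 15.7 and 0 CPM and the short one 11.2, 5.14, 0.942 and 0 CPM. In all 4 rat host libraries the long transcript exceeded the short one, and the short one was below every control library. Some mouse host and graft libraries were as low in the short transcript.

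**Figure D2:**
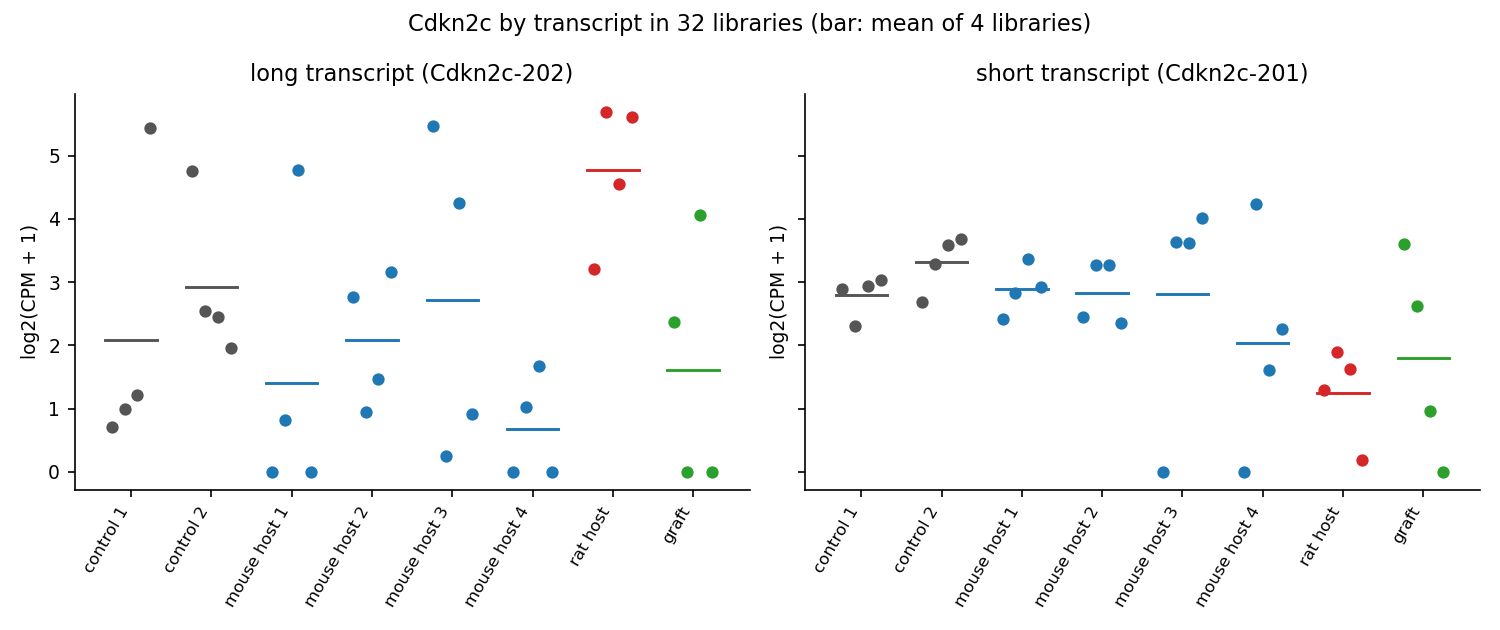
Levels of the long and the short Cdkn2c transcript in 32 libraries, as log2(CPM + 1); points are libraries and bars the mean of 4. The rat host libraries are high in the long transcript (8.26 to 50.9 CPM) and low in the short one (0.135 to 2.73 CPM). Some libraries of other arms lie in the same ranges.

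Summed over both, Cdkn2c stood at 9.70, 53.6, 24.5 and 48.3 CPM in the rat host (mean 34.0 ± 20.6 SD, n = 4). The 4 mouse host experiments averaged 13.9 ± 7.90 CPM (SD, n = 4 experiments), with libraries from 0 to 43.3 CPM. The controls averaged 18.1 ± 1.05 CPM (SD, n = 2 experiments) with libraries from 4.94 to 49.3 CPM, and the graft 9.28 ± 8.04 CPM (SD, n = 4). The log2 fold change of the rat host over the mouse host was 1.36 (SE 0.58), with an adjusted p of 0.423 by edgeR's quasi-likelihood test. Libraries of the rat host and mouse host overlapped. Fitted over 54529 transcripts, where 0.0458% were called in this contrast, the long transcript had a log2 fold change of 2.37 (SE 1.00) and the short one of -2.15 (SE 0.75). Neither passed, with edgeR adjusted p of 0.845 and 0.696, and their signs were opposite.

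The libraries high in the long transcript were mostly those with much RNA of proliferation genes. Replicate 4 of control experiment 1 and replicate 1 of control experiment 2, with 42.1 and 26.02 CPM of the long transcript, had proliferation sums of 1416 and 1658 CPM, and the other 6 control libraries had sums of 200.5 to 378. In the mouse host, replicates 1 and 3 of experiment 3 and replicate 3 of experiment 1 had sums of 2015, 1429 and 1068 CPM. Replicate 2 of mouse host experiment 1 departed from this, with a sum of 1089 CPM and 0.771 CPM of the long transcript, as did replicate 3 of the graft, with 162.5 CPM and 15.7 CPM.

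Over the 32 libraries, which share the arm differences and the depth of each experiment, the long transcript had a Pearson r of 0.776 with the proliferation sum (Spearman 0.618), on log2 scales. Over the 28 libraries without the rat host it was 0.676 (Spearman 0.457). The short transcript gave -0.229 and, without the rat host, 0.0446. The pattern was noticed in these libraries and is given as a description. Of 8724 genes averaging at least 8 CPM, the 3 whose levels followed Cdkn2c best over 32 libraries were Mad2l1 (r = 0.83), a spindle checkpoint gene, Cdc20 (r = 0.737), which activates the anaphase-promoting complex, and Hgh1 (r = 0.710).

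**Figure D3:**
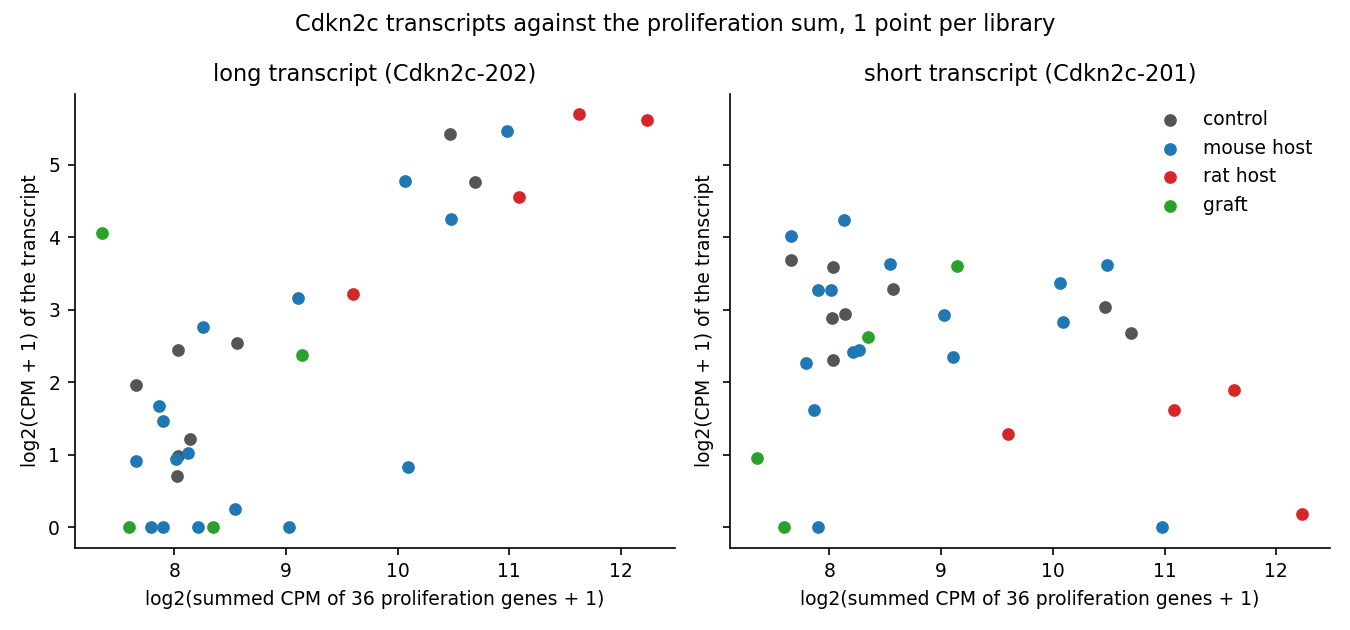
Each Cdkn2c transcript, as log2(CPM + 1), against the summed CPM of 36 proliferation genes on a log2 axis, with 1 point per library and colour by arm. The long transcript rises with the sum over the 32 libraries (r = 0.776), and the short transcript does not (r = -0.229).

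Cdkn1a, the p53 target that encodes p21, was close to absent in most libraries and high in a few. Of the 32 libraries, 21 had under 1 CPM and at most 13 reads, 4 had 1 to 10 CPM, and 7 had at least 10 CPM with 161 reads or more. In control experiment 1, the deepest, all 4 libraries were low, at 0.205, 0.409, 0.160 and 0.244 CPM. In control experiment 2 the values were 15.0, 83.8, 28.5 and 0.0839 CPM, so 3 of its 4 libraries stood above every library of control experiment 1. In that comparison Cdkn1a did not pass the default filter on low counts and was not tested.

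In the mouse host Cdkn1a read 26.2, 0.493, 0.271 and 0 CPM in experiment 1 and 17.2, 0.0798, 36.9 and 5.46 CPM in experiment 2. Experiment 3 gave 0, 0.231, 2.74 and 0 CPM, and experiment 4 0.183, 0.268, 0.283 and 0.265 CPM. Libraries with at least 1 CPM numbered 1, 3, 1 and 0 in experiments 1 to 4. The F-test among the 4 experiments gave an adjusted p of 0.368 by edgeR, where 1.35% of 12195 genes were called. The rat host read 0.0729, 3.11, 4.84 and 0.203 CPM, all below 5 CPM.

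The graft held the extreme of the series, with 0.478, 241.2, 0.369 and 0.528 CPM. Its replicate 2 alone carried 54.2% of the 6147 Cdkn1a reads of all 32 libraries. The log2 fold change of the graft over the mouse host was 3.61 (SE 1.90), with an edgeR adjusted p of 0.494. Without that library it was -3.62. Between the mouse host and the controls it was -1.57 (SE 1.65), with an edgeR adjusted p of 0.968. Without control experiment 2 it turned to 4.45.

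High and low libraries differed in which Cdkn1a transcripts were read. In the 7 libraries with at least 10 CPM, 57.2% of reads fell to Cdkn1a-201 and 39.9% to Cdkn1a-202, and 0.981% to Cdkn1a-203, which starts inside the gene. In the 21 libraries under 1 CPM, 94.7% fell to Cdkn1a-203, a handful of reads each. In replicate 2 of the graft, Cdkn1a-201 was assigned 1907 reads and Cdkn1a-202 1403. These are estimated counts of overlapping transcripts, and reads over their separate first exons were not counted. An annotated gene on the opposite strand overlaps exons of Cdkn1a, and no source used here states whether counting used strand.

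The starts of Cdkn1a-202 and Cdkn1a-201 lie 2790 bases apart on the plus strand, and both GENCODE starts match a RefSeq start to the base. The 250 bases before each are shown, since estimated reads fell to both transcripts where the gene was high. The upstream one, before Cdkn1a-202, is chr17:29090729-29090978 and the downstream one, before Cdkn1a-201, is chr17:29093519-29093768.
Cdkn1a upstream start: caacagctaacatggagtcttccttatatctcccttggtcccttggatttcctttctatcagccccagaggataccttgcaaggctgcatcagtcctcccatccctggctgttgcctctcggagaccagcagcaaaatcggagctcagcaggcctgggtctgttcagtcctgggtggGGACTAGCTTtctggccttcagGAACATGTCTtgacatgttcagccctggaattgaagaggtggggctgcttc
Cdkn1a downstream start: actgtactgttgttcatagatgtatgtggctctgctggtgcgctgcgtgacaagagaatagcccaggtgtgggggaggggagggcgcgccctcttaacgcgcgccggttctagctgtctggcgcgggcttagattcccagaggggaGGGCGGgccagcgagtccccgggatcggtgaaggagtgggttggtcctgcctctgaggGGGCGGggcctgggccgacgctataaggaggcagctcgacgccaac

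The upstream window held 2 matches to the p53 half-site, GGACTAGCTT and GAACATGTCT, at 73 and 51 bases before its start, and no GC box. The downstream window held 2 GC boxes, at 104 and 46 bases, and no match to the half-site. Of the 32851 windows, 7.13% held a match to the half-site. A match is a description of letters and no binding was measured.

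Of 18 other p53 target genes listed, 17 were tested in the arm comparisons and edgeR called 0 in each. In the mouse host, rat host and graft comparisons 1, 0 and 2 had an unadjusted p below 0.05, beside 4.40%, 11.6% and 12.4% of all genes. DESeq2 called 0, 0 and 2, the latter Sesn1 and Sesn2, lower in the graft, where it called 5.68% of all genes lower. The median log2 fold changes of the 17 were -0.10, 0.02 and 0.13, beside medians of 0.00, -0.03 and -0.09 over all genes. Plk2 and Gadd45a, with the highest mean CPM of the list, averaged 88.0 and 74.6 CPM over the 32 libraries. The 3 genes most like Cdkn1a over the libraries, Tmem63b (r = 0.557), Ppie (r = 0.552) and Uap1 (r = 0.518), followed it less closely than those found for the other 7 members.

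Rb1, whose product restrains E2F factors, was read in every control and mouse host library and was scarce in the rat host. The rat host libraries gave 0.292, 4.52, 3.08 and 0.0675 CPM (mean 1.99 ± 2.18 SD, n = 4). The mouse host gave 18.4, 8.47, 6.59 and 10.3 CPM in experiment 1 and 2.41, 19.3, 26.5 and 24.9 CPM in experiment 2. It gave 6.96, 7.61, 21.9 and 8.68 CPM in experiment 3 and 1.74, 2.42, 8.77 and 2.74 CPM in experiment 4.

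The rat host libraries were therefore below all of mouse host experiments 1 and 3 and overlapped experiments 2 and 4. The mouse host averaged 11.1 ± 5.87 CPM (SD, n = 4 experiments). Fitted over experiments, the rat host was at a log2 fold change of -2.42 (SE 0.89, 95% interval -4.46 to -0.38), with an unadjusted p of 0.0256 and an adjusted p of 0.337 by edgeR. DESeq2 gave -2.44 and an adjusted p of 0.0375, in a comparison where it called 3.94% of all genes lower. Over all alternatives the estimate ran from -3.30 to -1.26 and the adjusted p from 0.0375 to 0.468. The rat host libraries also had the lowest parathyroid marker sums, which are mostly Chga and Pth, and high proliferation sums. The part of either in this Rb1 value was not tested. In bulk libraries, fewer cells with Rb1 and less Rb1 RNA per cell cannot be told apart.

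Controls held more Rb1 on average, at 18.5 ± 4.84 CPM (SD, n = 2 experiments), with 38.4, 9.60, 6.99 and 5.43 CPM in experiment 1 and 14.7, 21.5, 14.2 and 37.4 CPM in experiment 2. The mouse host against the controls gave -0.76 (SE 0.56), with an edgeR adjusted p of 0.910. The graft ran from 0 to 25.0 CPM, with 25.0, 0, 8.76 and 13.5 CPM in its libraries, and a log2 fold change of 0.09 (SE 0.73) over the mouse host. Rb1 exons overlap those of Lpar6 and Rcbtb2 on the opposite strand. The genes most like Rb1 were Fah (r = 0.728), which ends tyrosine breakdown, Rtn1 (r = 0.636) and Pls3 (r = 0.634).

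The relatives of Rb1 and the E2F factors they bind were described as a list. Of 12 pocket protein and E2F genes edgeR called 0 in each arm comparison, with 1, 2 and 1 at an unadjusted p below 0.05, beside 4.40%, 11.6% and 12.4% of all genes. DESeq2 called 0, 0 and 1 (E2f2, lower in the graft, beside 5.68% of all genes). In the rat host 10 of the 12 had a log2 fold change above 0, beside 46.0% of all genes, with a median of 0.78. The highest mean CPM was that of Tfdp1, a dimer partner of E2F factors, at 255.4 CPM on average over the 32 libraries, and E2f4, a repressive E2F, at 58.6 CPM on average. Of 6 DREAM complex genes, which hold cell cycle genes silent in resting cells or activate them in dividing ones, edgeR called 0 and DESeq2 called 0 in each arm comparison, with 0 at an unadjusted p below 0.05. Rbbp4 averaged 140.5 CPM and Lin37 45.2 CPM.

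**Figure D4:**
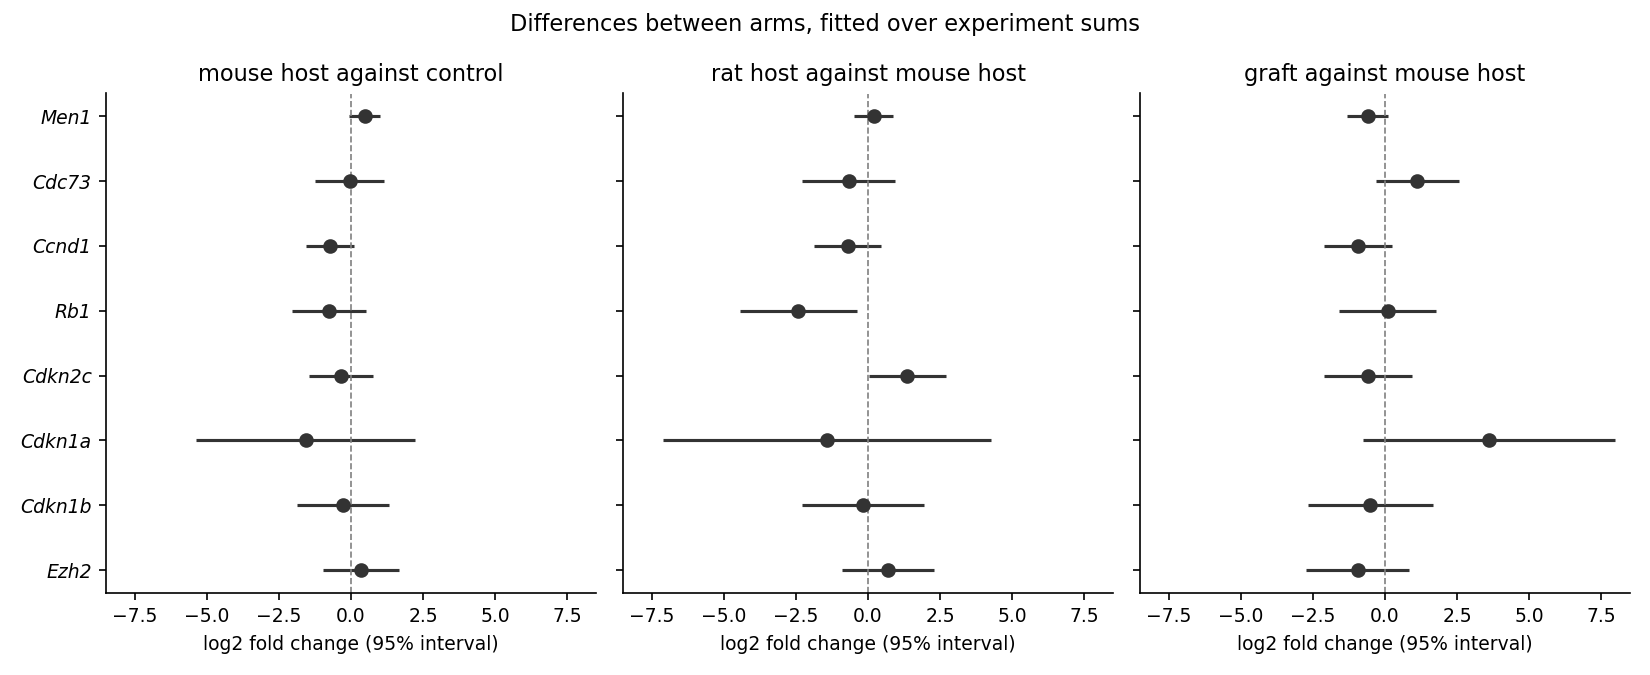
Log2 fold change of each gene between arms, fitted by edgeR over experiment sums; points are estimates and lines 95% intervals. The intervals of Rb1 and Cdkn2c in the rat host comparison leave out 0 before adjustment, and Cdkn1a has the widest intervals.

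Ccnd1, the cyclin D1 gene, had its highest means in the controls and passed the threshold in no comparison. Control libraries gave 45.6, 31.8, 27.9 and 34.2 CPM in experiment 1 and 25.2, 27.9, 37.6 and 53.8 CPM in experiment 2, so the 2 experiment means lay close together (35.5 ± 0.871 CPM, SD, n = 2 experiments). The mouse host gave 13.3, 27.98, 42.0 and 12.0 CPM in experiment 1, 32.9, 15.4, 11.0 and 8.14 in experiment 2, 19.3, 40.4, 45.1 and 20.9 in experiment 3, and 1.37, 21.2, 15.8 and 13.6 in experiment 4. All 4 mouse host means were below both control means, while libraries overlapped.

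The mouse host averaged 21.3 ± 8.12 CPM (SD, n = 4 experiments), a log2 fold change of -0.73 (SE 0.36) against the controls with an edgeR adjusted p of 0.892. The rat host gave 9.12, 20.0, 10.6 and 10.7 CPM, a log2 fold change of -0.71 (SE 0.50, edgeR adjusted p of 0.702) against the mouse host. The graft gave 7.01, 22.3, 13.1 and 0.176 CPM, at -0.93 (SE 0.51, edgeR adjusted p of 0.508). All 8 rat host and graft libraries were below the lowest control library, 25.2 CPM, a comparison that was not tested. By TPM these libraries overlapped the controls. Replicate 2 of the rat host (7.65 TPM) and of the graft (8.47 TPM) exceeded replicate 1 of control experiment 2 (7.07 TPM). How many of all genes separate like this in CPM was not counted. Exons of Ccnd1 overlap LTO1 on the opposite strand. Trpm4 (r = 0.705), a cation channel gene, Snrnp200 (r = 0.698) and Zfp512 (r = 0.672) followed Ccnd1 best.

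The other D-type cyclins had positive log2 fold changes in the rat host, where that of Ccnd1 was negative. Ccnd3 gave 501 ± 66.8 CPM (SD, n = 4) in the rat host, with libraries from 446 to 596, and 221 ± 20.1 CPM (SD, n = 4 experiments) in the mouse host, with libraries from 150.8 to 276.5. It rose by a log2 fold change of 1.23 (SE 0.16, edgeR adjusted p of 0.0295) and was the 1 gene of 12 listed G1 cyclins and CDKs that edgeR called in this comparison, where 0.217% of all genes were called higher and 0.427% lower. The call ended without either control experiment or without mouse host experiment 2, 3 or 4, at edgeR adjusted p of 0.0542 to 0.0853, with a log2 fold change of 1.19 to 1.23. Of the 12, 5 had an unadjusted p below 0.05 and 10 a log2 fold change above 0, beside 11.6% and 46.0% of all genes, with a median of 0.89. DESeq2 called Ccnd3, Ccnd2, Cdk4 and Cdk2, all higher, beside 1.64% of all genes it called higher there.

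Ccnd2 and Cdk4, named after their values were seen, stood at 0.95 (SE 0.20) and 0.83 (SE 0.17) in the rat host by edgeR, with adjusted p of 0.0998 and 0.0996. In the mouse host and graft comparisons edgeR called 0 of the 12, with 0 and 2 at an unadjusted p below 0.05, and DESeq2 called 0 and 1 (Cdk6, lower in the graft). The 14 genes of cyclin D1 turnover and upstream signals had 0 edgeR calls and 0 DESeq2 calls in each arm comparison. At an unadjusted p below 0.05 there were 1, 3 and 0, beside 4.40%, 11.6% and 12.4% of all genes. Ddb1 averaged 291 CPM and Cul4a 100.6 CPM, both subunits of a cullin ubiquitin ligase.

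**Figure D5:**
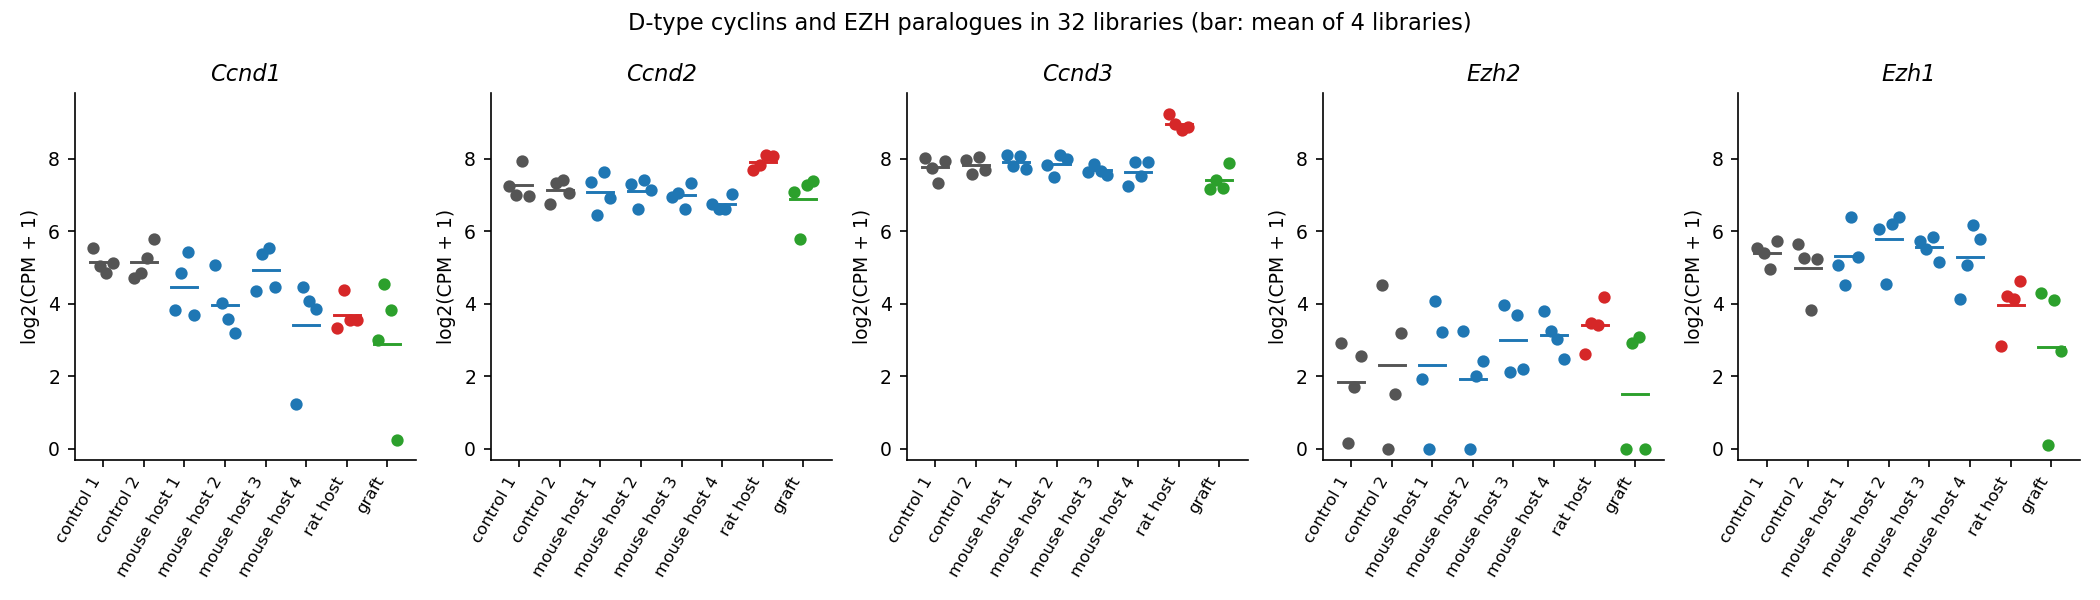
D-type cyclins (Ccnd1, Ccnd2, Ccnd3) and the EZH paralogues (Ezh2, Ezh1) in 32 libraries, as log2(CPM + 1), with points for libraries and bars for the mean of 4. Ccnd3 in the rat host (446 to 596 CPM) lies above every other library, while Ccnd1 there (9.12 to 20.0 CPM) lies below every control library. By TPM, Ccnd1 libraries of the rat host and the controls overlapped.

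Cdkn1b, which encodes p27, was read at a few CPM throughout and had no read in 5 libraries. Control libraries gave 3.79, 7.74, 2.28 and 9.19 CPM in experiment 1 and 9.20, 5.52, 11.1 and 8.98 CPM in experiment 2. In mouse host experiment 1 only replicate 1 had reads, at 8.98 CPM, and the other 3 libraries were at 0. Experiments 2, 3 and 4 gave 3.70, 4.55, 9.10 and 3.92 CPM, then 11.8, 12.4, 2.82 and 14.6 CPM, then 2.47, 9.21, 8.48 and 1.85 CPM.

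The rat host gave 0, 4.38, 2.42 and 12.6 CPM and the graft 4.70, 3.33, 8.67 and 0 CPM, so every arm overlapped the others. Log2 fold changes were -0.29 (SE 0.69) for the mouse host against the controls, -0.18 (SE 0.92) for the rat host against the mouse host and -0.51 (SE 0.94) for the graft against the mouse host, with edgeR adjusted p from 0.849 to 1. Among the 4 mouse host experiments the edgeR F-test gave an adjusted p of 0.929. Without replicate 1 of experiment 1, which left that experiment without a read, it was 0.0264. Tbc1d4 (r = 0.710), Smc5 (r = 0.682) and Eif5 (r = 0.659) were most like Cdkn1b.

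The SCF-Skp2 ligase degrades p27 and FOXO factors transcribe its gene. Of 10 such genes edgeR called 0 in each arm comparison, with 0, 2 and 3 at an unadjusted p below 0.05, beside 4.40%, 11.6% and 12.4% of all genes. DESeq2 called 0, 1 (Cks1b, higher in the rat host, beside 1.64% of all genes) and 0. Skp1a, a core subunit, averaged 713 CPM and Rbx1 230.0 CPM. The 5 other CDK inhibitor genes had 0 edgeR calls in each arm comparison, with 2, 2 and 0 at an unadjusted p below 0.05, beside the same shares of all genes. DESeq2 called 2 in the rat host, Cdkn1c and Cdkn2d, both higher, beside 1.64% of all genes, and 0 in the other comparisons.

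Cdkn1c, which encodes p57 and is imprinted, was at 55.0 ± 6.64 CPM (SD, n = 4) in the rat host, with libraries from 51.4 to 65.0. Mouse host libraries ran from 0 to 12.9 CPM, control libraries from 3.90 to 34.3 and graft libraries from 0 to 9.70. The log2 fold change of the rat host against the mouse host was 3.51 (SE 0.80, edgeR adjusted p of 0.117, DESeq2 adjusted p of 0.00379). Cdkn2d, the p19 gene, at 42.4 CPM on average over the 32 libraries, stood at 1.04 (SE 0.24, edgeR adjusted p of 0.128) in that comparison.

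Men1, the menin gene, was read in all 32 libraries and passed the test in no comparison. Control libraries gave 16.8, 30.4, 33.0 and 58.1 CPM in experiment 1 and 63.8, 26.8, 22.2 and 54.9 CPM in experiment 2. The mouse host gave 51.8, 75.2, 90.5 and 45.3 CPM in experiment 1, 39.3, 37.1, 45.2 and 75.5 in experiment 2, 27.6, 22.6, 62.4 and 52.6 in experiment 3, and 41.7, 81.9, 20.3 and 70.6 in experiment 4. Experiment means of the mouse host reached 65.7 CPM in experiment 1, and libraries overlapped those of the controls.

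The mouse host averaged 52.5 ± 10.2 CPM (SD, n = 4 experiments) and the controls 38.3 ± 5.18 CPM (SD, n = 2 experiments), a log2 fold change of 0.47 (SE 0.24, 95% interval -0.07 to 1.02) with an edgeR adjusted p of 0.892. The rat host gave 69.4, 57.9, 60.5 and 45.4 CPM, a narrow range, and 0.20 (SE 0.30) against the mouse host. The graft gave 40.1, 1.74, 20.2 and 80.3 CPM, a wide one, and -0.61 (SE 0.31, edgeR adjusted p of 0.484). The library lowest in Men1, replicate 2 of the graft, was the one highest in Cdkn1a. Over the 32 libraries the r of Men1 with Cdkn1a was -0.418, the lowest of the 28 pairs of members, and that of Cdkn2c with Ccnd1 was 0.578, the highest.

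Of the 14 Men1 transcripts, Men1-203 held 62.3% of reads and Men1-206 29.3%. In the transcript fit, Men1-203 had a log2 fold change of 0.98 (SE 0.32) in the mouse host against the controls and Men1-206 of -0.80 (SE 0.43), with edgeR adjusted p of 0.901 for both and 0% of transcripts called. In the graft against the mouse host the signs were the other way round, at -1.66 (SE 0.45) and 0.89 (SE 0.54), with edgeR adjusted p of 0.271 and 0.690 and 0.103% of transcripts called. Dcun1d2 (r = 0.801), Ogfr (r = 0.773) and Usp10 (r = 0.762) were most like Men1. Of 11 genes of the menin complex and its partners, which include the histone methyltransferase Kmt2a, edgeR called 0 and DESeq2 called 0 in each arm comparison, with 0, 0 and 1 at an unadjusted p below 0.05. Dpy30 and Ash2l, shared methyltransferase subunits, averaged 79.2 and 64.4 CPM.

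Cdc73 had its highest mean in the graft, where its 4 libraries gave 23.6, 20.2, 27.2 and 15.7 CPM (mean 21.7 ± 4.88 SD, n = 4). Rat host libraries gave 7.22, 3.89, 6.75 and 6.48 CPM (mean 6.08 ± 1.497 SD, n = 4), all below the graft in CPM. By TPM the 2 arms overlapped, since replicate 4 of the graft (1.81 TPM) lay below replicate 3 of the rat host (3.215 TPM). The mouse host gave 0.108, 9.65, 4.70 and 5.45 CPM in experiment 1, 17.4, 12.3, 9.25 and 20.0 in experiment 2, 4.26, 16.2, 13.3 and 19.6 in experiment 3, and 5.20, 6.44, 10.4 and 6.00 in experiment 4.

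In CPM, experiments 2 and 3 of the mouse host overlapped the graft and experiments 1 and 4 did not. By TPM experiments 1 and 4 overlapped it too, with libraries up to 3.60 and 3.26 TPM. How many of all genes separate like this in CPM was not counted. Against the mouse host the graft had a log2 fold change of 1.11 (SE 0.63) with an edgeR adjusted p of 0.521, and the rat host -0.67 (SE 0.71, edgeR adjusted p of 0.783). The controls gave 3.96, 9.98, 7.08 and 11.0 CPM in experiment 1 and 12.6, 20.8, 7.99 and 8.48 CPM in experiment 2, and differed from the mouse host by -0.04 (SE 0.52). Only 56.4% of Cdc73 reads fell to its long protein-coding transcript, Cdc73-201, and 23.0% and 17.1% to the processed transcripts Cdc73-203 and Cdc73-206. Exons of Cdc73 overlap B3galt2 on the opposite strand. Amotl1 (r = 0.723), Pcdh7 (r = 0.718) and Tchh (r = 0.709) were most like Cdc73.

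Listed partners of parafibromin, PAF1 complex subunits together with the elongation factors Supt5 and Supt6, mostly had negative values in both the rat host and the graft. These 2 comparisons share the mouse host libraries. Of 7 tested, edgeR called 0 in each arm comparison, with 0, 2 and 3 at an unadjusted p below 0.05, beside 4.40%, 11.6% and 12.4% of all genes. DESeq2 called 0, 1 (Supt5, lower in the rat host, beside 3.94% of all genes) and 1 (Ctr9, lower in the graft, beside 5.68%). In the rat host comparison and in that of the graft, 6 of the 7 had a log2 fold change below 0, with a median of -0.40. Of all genes, 46.0% were above 0 in the rat host, with a median of -0.03, and 43.4% in the graft, with a median of -0.09. In the graft Ctr9, a scaffold subunit, stood at -1.52 (SE 0.34, edgeR adjusted p of 0.142). Wdr61, at 197.7 CPM on average, stood at 0.44 (SE 0.17, edgeR adjusted p of 0.342), and Paf1, at 104.6 CPM on average, at -0.40 (SE 0.25, edgeR adjusted p of 0.564).

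Ezh2 was low and had no read in 5 libraries. Controls gave 6.51, 0.126, 2.24 and 4.91 CPM in experiment 1 and 21.9, 0, 1.88 and 8.14 CPM in experiment 2. The mouse host gave 2.81, 0, 15.99 and 8.295 CPM in experiment 1, 8.60, 0, 3.06 and 4.33 in experiment 2, 14.7, 3.38, 11.9 and 3.62 in experiment 3, and 13.0, 8.59, 7.16 and 4.59 in experiment 4. The rat host gave 5.18, 10.2, 9.62 and 17.1 CPM and the graft 0, 6.59, 7.47 and 0 CPM.

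All 4 rat host libraries held Ezh2 and 2 of the 4 graft libraries did. Log2 fold changes were 0.35 (SE 0.57) in the mouse host against the controls, 0.68 (SE 0.69) in the rat host against the mouse host and -0.95 (SE 0.78) in the graft against the mouse host, with edgeR adjusted p of 1, 0.775 and 0.654. The r of Ezh2 with the proliferation sum was 0.407 over 32 libraries and 0.283 over the 28 without the rat host. Exons of Ezh2 overlap Gm26625 on the opposite strand. Rbmxl1 (r = 0.679), Hspa14 (r = 0.621) and Tet1 (r = 0.620), a DNA demethylase gene, were most like Ezh2.

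Ezh1, the paralogue typical of resting cells, had lower means in the rat host and the graft than in the mouse host. It was named after its values were seen. It averaged 48.8 ± 8.21 CPM (SD, n = 4 experiments) in the mouse host and 38.3 ± 5.74 CPM (SD, n = 2 experiments) in the controls, against 16.1 ± 7.36 CPM (SD, n = 4) in the rat host and 10.1 ± 8.81 CPM (SD, n = 4) in the graft. By edgeR the rat host was at -1.53 (SE 0.33, adjusted p of 0.106) and the graft at -2.30 (SE 0.35, adjusted p of 0.0809) against the mouse host. By DESeq2 both passed, at adjusted p of 0.000501 and 2.25e-08. The list held 13 genes, of the complex, its accessory factors and the opposing demethylases Kdm6a and Kdm6b. Of these edgeR called 0 in each arm comparison, with 0, 4 and 2 at an unadjusted p below 0.05, beside 4.40%, 11.6% and 12.4% of all genes. DESeq2 called 0, 1 (Ezh1) and 2 (Ezh1 and Jarid2, both lower in the graft), where it called 3.94% of all genes lower in the rat host and 5.68% in the graft. Rbbp7, a histone-binding subunit, averaged 362 CPM.

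Wider lists frame these values. All 36 proliferation genes had a log2 fold change above 0 in the rat host against the mouse host, beside 46.0% of all genes, with a median of 3.09. There edgeR called 0 of them, and 17 reached an unadjusted p below 0.05, beside 11.6% of all genes. DESeq2 called 4, all higher (Bub1b, Ccna2, Gins2 and Uhrf1), beside 1.64% of all genes it called higher. In the graft 27 of 36 were below 0, with a median of -1.83, and edgeR called 1, Uhrf1, which helps copy DNA methylation at replication, beside 0.0956% of all genes called lower and 0.0191% higher. In that comparison 6 of the 36 had an unadjusted p below 0.05, beside 12.4% of all genes. DESeq2 called 7, all lower, beside 5.68% of all genes it called lower there. Uhrf1 had no read in the 4 graft libraries and 2306 reads in the mouse host, which makes the graft at least 199.9-fold lower against a floor of 3 reads over that group (edgeR adjusted p of 0.0195). For Uhrf1, graft against mouse host, the call ended without mouse host experiment 2, 3 or 4, and without replicate 3 of mouse host experiment 3, at edgeR adjusted p of 0.0643 to 0.0706. It also ended with limma voom (adjusted p of 0.174) and limma on log2(TPM + 1) (adjusted p of 0.0918). Only 10 of the 16 mouse host libraries had at least 10 reads of it. The mouse host against control gave 0 edgeR calls, 0 DESeq2 calls and 0 at an unadjusted p below 0.05 in this list.

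Of 16 other parathyroid tumour genes edgeR called 0 in each arm comparison, with 1, 3 and 3 at an unadjusted p below 0.05, beside 4.40%, 11.6% and 12.4% of all genes. DESeq2 called 0, 0 and 1 (Ap2s1, higher in the graft, beside 0.738% of all genes). Casr, the calcium-sensing receptor gene, averaged 564 CPM and stood at -0.63 (SE 0.26, edgeR adjusted p of 0.411) in the rat host. Gcm2 was called among the 4 mouse host experiments (edgeR adjusted p of 0.00669), with libraries from 571 to 1477 CPM.

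Within arms, none of the 8 genes passed the test between experiments. Between the 2 control experiments 7 members were tested and edgeR called 0, with 0 at an unadjusted p below 0.05, beside 0.0173% called and 5.39% at that p over 11544 genes (3.06% lower and 2.33% higher in experiment 1). DESeq2 called 0 there too. All 7 log2 fold changes of control experiment 1 against experiment 2 were below 0, with a median of -0.57, in a set where 50.9% of all genes were above 0. Labelled sex, age and depth differ together between these 2 experiments and cannot be told apart. Among the 4 mouse host experiments edgeR called 0 of 8, with 1 at an unadjusted p below 0.05, Cdkn1a, beside 12.4% of all genes, and DESeq2 called 0.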

How the data were processed

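Per the submitters' processing notes, Salmon quantified the reads and the build named is GRCm39. Its version and the annotation behind it: not given in the sources used here. In the deposited tables the authors list each transcript with an expected count (estimated reads), a TPM and lengths. Of 116747 transcripts, 115685 matched GENCODE M21, which served for names and transcript structure only, and 1062 with 0.493% of reads did not. Here the estimated counts of a gene's transcripts were added up, then rounded to whole numbers. No 2 libraries of an experiment agreed within sampling noise (48 pairs, lowest chi-square per degree of freedom 41).

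Tests used edgeR 4.0.16 in R 4.3.3 (quasi-likelihood, TMM, default filter): on 8 experiment sums with a coefficient per arm (4 residual degrees of freedom), and on single libraries within arms. A call is an adjusted p below 0.05 over all genes tested. Alternatives were DESeq2 1.42.0, limma 3.58.1 (voom, and log2(TPM + 1) with a pseudocount of 1), other size factors and filters, single libraries, and each library or experiment left out. CPM used TMM sizes over 32 libraries; arm means average experiments, and SDs are over experiments, or over libraries where an arm is 1 experiment. The scripts were tested on simulated counts.

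From each gene list, called genes were named (at most 6 per test), or else the 2 with the highest mean CPM; others are marked as named after their values were seen. Lin54, Skic8 and Skp1 had no match. The most alike genes are the 3 with the highest Pearson r of log2(CPM + 1), leaving out Gm and Rik symbols. Members and lists were chosen with earlier results of these data known.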

Additional observations from a re-analysis of the deposited data

Results flagged for a closer look

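Each of the 8 genes was examined in each of the 8 experiments for a library far from the other 3, and 12 of the 64 groups (18.8%) held one by Dixon's criterion. For normally spread values chance gives about 1 in 20. Over the 6149 genes with mean levels in the members' range the same criterion was met in 7.70% of 49092 groups, and in 80.0% of those the far library was high. Cdkn1a stood far above the rest in replicate 2 of the graft (241.2 CPM), replicate 1 of mouse host experiment 1 (26.2 CPM) and replicate 3 of mouse host experiment 3 (2.74 CPM). Cdkn2c stood high in replicate 4 of control experiment 1 (49.3 CPM), replicate 1 of control experiment 2 (31.4 CPM) and replicate 3 of mouse host experiment 1 (35.6 CPM), the first 2 being the control libraries with the most RNA of proliferation genes. Rb1 stood high in replicate 1 of control experiment 1 (38.4 CPM), replicate 3 of mouse host experiment 3 (21.9 CPM) and replicate 3 of mouse host experiment 4 (8.77 CPM). Cdkn1b stood high in replicate 1 of mouse host experiment 1 (8.98 CPM) and replicate 3 of mouse host experiment 2 (9.10 CPM), and Ccnd1 in replicate 2 of the rat host (20.0 CPM). All 12 were high rather than low, as most were over genes of like level.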

How the results depend on the processing

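Over 1132 alternatives of the 39 member results, 1096 kept direction and side of the threshold, 34 changed sign and 2 gained a call. The gained calls were Rb1 in the rat host with DESeq2, which made 1 member called, and Cdkn1b among the mouse host experiments without replicate 1 of experiment 1, also 1 member. That replicate was the only library of its experiment with a Cdkn1b read, so the Cdkn1b call is no support for a difference. Between controls, members called ran from 0 to 1. The 1 was Cdkn1a without replicate 4 of control experiment 2, the only library of that experiment low in it, so that it passed the filter through the experiment where it was high and had to differ. That call is no support for a difference. The cause of the changes was not tested. Counts of all genes called were 135, 870 and 1001 with DESeq2, in the order mouse host against control, then rat host against mouse host, then graft against mouse host. Single libraries gave 14, 776 and 477, single libraries with a replicate block 4, 820 and 420, limma voom 42, 1043 and 316, and limma on log2(TPM + 1) 7, 592 and 259. With no filter the last 2 were 173 and 53. Leaving out libraries or experiments, they ran from 12 to 127 and from 0 to 77. Between the controls the count was 125 with DESeq2, 4 with limma, 0 with the replicate block and 0 to 4 with libraries left out. For differences among the 4 mouse-host experiments it was 846, 293 and 78 to 202 with DESeq2, limma and libraries left out. Replicate numbers did not pair libraries (median r of same-numbered deviations -0.00268, other-numbered 0.000663), and the replicate block called no member.

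Signs that changed with the tool were Cdkn1a in the rat host (0.34) and Rb1 in the graft (-1.47) with limma voom. With limma on log2(TPM + 1) they were Cdkn1b in the rat host (0.19) and the graft (0.0045), Rb1 in the graft (-0.18) and Ccnd1 between controls (0.29). The short transcript in place of Cdkn2c gave -2.15 in the rat host, an alternative chosen after seeing the data. With libraries or experiments left out, mouse host against control ran from -0.33 to 0.32 for Cdc73, -2.89 to 4.45 for Cdkn1a, -0.74 to 0.030 for Cdkn1b, -0.77 to 0.15 for Cdkn2c and -0.11 to 1.06 for Ezh2. Cdkn1b in the rat host ran from -1.31 to 0.27, and in the graft Cdkn1a from -3.62 to 4.92 and Rb1 from -0.65 to 0.56. Between controls Ccnd1 ran from -0.21 to 0.19, Cdkn2c from -1.51 to 0.24 and Ezh2 from -1.71 to 0.036. Depth limits the low members: 16 of 256 values had no read.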
